A study of Mus musculus with 24 samples.

Results

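The genes described here encode lysosomal hydrolases and lysosomal membrane proteins. They are 36 genes, chosen by name as a functional group, of which 35 have at least 1 probe on the array and 31 have a probe detected well enough to be tested, out of 9836 genes tested in all. The lysosome is the acidic compartment in which proteins, glycans and lipids taken up from outside or delivered by autophagy are broken down. A proton pump in its membrane acidifies the lumen, soluble hydrolases such as the cathepsins and glycosidases do the cutting, and heavily glycosylated membrane proteins line the inner face. In adipose tissue, lysosomes are abundant in macrophages, where they digest lipid released by adipocytes, and rapamycin inhibits mTOR complex 1, a kinase that sits on the lysosome and restrains the transcription factor TFEB.

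The study measured messenger RNA on Illumina mouse BeadChips in 24 samples, 1 array each, of male C57BL6/J mice at 8 months of age. Each of 3 groups had 8 arrays: food without limit (ad libitum, AL), 40% dietary restriction (DR), and rapamycin at 14 ppm (Rapa), with the treatments begun at 2 months and kept up for 6 months. No group carries a transgene or mutation, per the labels. The series title sets the effects of rapamycin on white adipose tissue against those of restriction.

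Epididymal fat and liver both appear as the tissue in the labels. Adipocyte genes were detected throughout for 13 of 14 with a probe, whereas of 18 hepatocyte genes with a probe 1 was detected throughout and 4 nowhere. Between 13012 and 19203 probes were detected per array. Of 17 epididymis and testis genes with a probe, which fat should lack, 12 were tested. The median log2 intensity of the 12 was 4.64 to 6.20 on the AL arrays, 5.36 to 10.08 on the DR arrays and 4.67 to 11.30 on the Rapa arrays. It exceeded 6 on 10 arrays, of which 6 were DR, 3 Rapa and 1 AL, and exceeded 7 on 7 arrays, 5 DR and 2 Rapa. Group differences of the lysosomal genes are therefore given with and without these arrays. The macrophage results below do not leave them out as a set.

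Under restriction 7 of the 31 tested lysosomal genes were lower than in AL and 1 was higher, with limma at an adjusted p under 0.05. The 7 were the cathepsin genes Ctsk, Ctss and Ctsa, the glycosidase genes Glb1 and Gusb, the membrane protein gene Laptm5 and the proton pump gene Atp6v1b2, and the 1 was the cholesterol transporter gene Npc1. Together they make up 25.8% of the members, against a background of 11.7% of all genes tested, or 6.5% for genes that were lower and 5.2% for genes that were higher. The fitted difference was negative for 24 of 31 members, with a median log2 fold change of -0.25, whereas over all genes 51% were negative and the median was -0.01. In bulk samples such as these, fewer cells of a type and less RNA per cell cannot be told apart.

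These counts depend on which arrays enter. Without the 7 arrays above a marker median of 7, 2 members were called (Glb1 and Gusb), or 6.45% against 4.68% of all genes. Without the 10 arrays above 6, which left 2 DR arrays, 1 was called (Glb1), or 3.23% against 2.53% of all genes, so in both settings the members lay near the background. Differences were then negative for 23 and 19 of the 31 members. With the epididymis and testis median as a covariate, 7 members were called against 9.11% of all genes, losing Laptm5, Npc1 and Ctss and gaining Man2b1 and Manba. Scaling arrays by their median in place of their quantiles shifted the median of all genes by -0.27 between DR and AL, and 3 members were then called (9.68% against 5.86% of all genes), Ctsk, Glb1 and Gusb, all lower. The direction of the 8 called members was unchanged in these 4 settings.

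**Figure D1:**
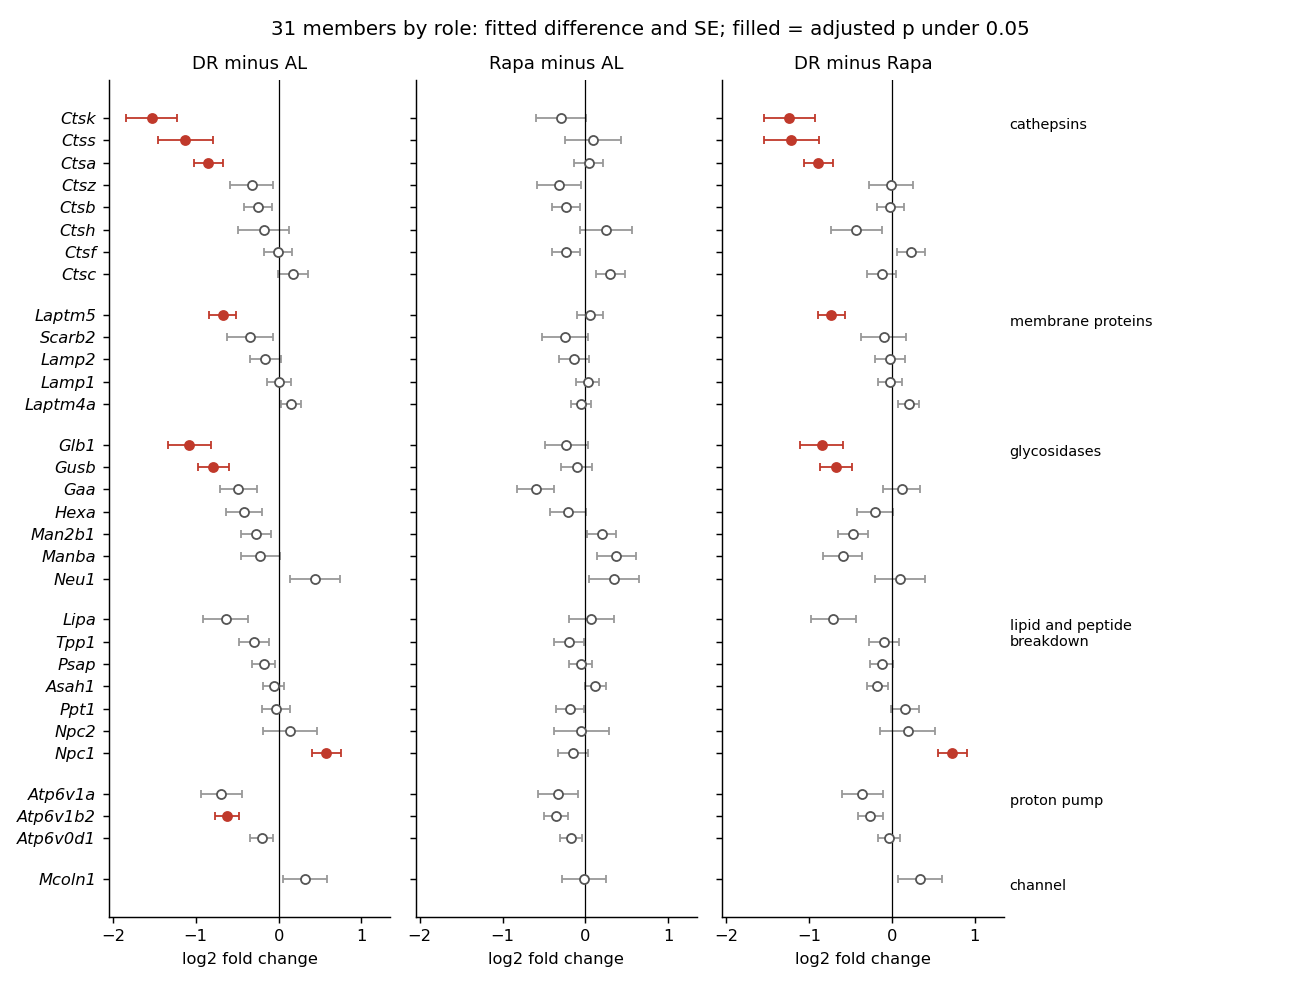
Fitted log2 fold change (x axis, error bars SE) of the 31 tested members, grouped by role, for DR minus AL, Rapa minus AL and DR minus Rapa, 8 arrays per group. Filled points passed an adjusted p of 0.05: 8 in the first panel, 0 in the second and 7 in the third.

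TFEB, whose own 2 probes were detected on 0 and 3 of 24 arrays, is known to bind an E-box-containing element in lysosomal gene promoters called CLEAR. Promoter windows of 300 bases, from 250 before to 50 after the start, were taken from RefSeq (GRCm38.p6). They were found for 31 of the 36 members by symbol, 37 windows in all, and for 6 of the 8 genes called between DR and AL. The 8-base CLEAR core TCACGTGA, searched on both strands, was present in 6 of the 37 member windows (16.2%) and in 0.974% of all windows in the RefSeq table. The E-box CACGTG, which lies within that core, was present in 11 member windows (29.7%) against 7.15% of all. The longer CLEAR palindrome, with 1 further base on either side, was in 0 member windows and in 0.326% of all. CLEAR was defined on promoters of lysosomal genes, so its frequency here is a description and no separate finding. Ctsa is the called gene with the core, which it carries in 2 copies in the window printed below. Its other window, chr2:164832622-164832921, holds neither a core nor an E-box. Glb1 is the called gene with an E-box outside a core. Mcoln1 and Lamp1, which were not called in any comparison of the reported fit, have 2 and 4 E-boxes, 1 of those of Mcoln1 within a core. For each of these 4 genes a window with matches is printed 5′ to 3′ on the gene's strand, to set called beside uncalled genes. E-boxes and cores are in capitals.
Ctsa, chr2:164833523-164833822, plus strand: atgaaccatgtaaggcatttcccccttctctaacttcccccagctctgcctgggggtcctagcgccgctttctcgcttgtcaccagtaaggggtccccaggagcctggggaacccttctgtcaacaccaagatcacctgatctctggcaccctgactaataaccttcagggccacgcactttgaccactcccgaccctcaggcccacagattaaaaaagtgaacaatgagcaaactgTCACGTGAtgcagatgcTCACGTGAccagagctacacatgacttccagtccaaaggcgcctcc
Glb1, chr9:114400828-114401127, plus strand: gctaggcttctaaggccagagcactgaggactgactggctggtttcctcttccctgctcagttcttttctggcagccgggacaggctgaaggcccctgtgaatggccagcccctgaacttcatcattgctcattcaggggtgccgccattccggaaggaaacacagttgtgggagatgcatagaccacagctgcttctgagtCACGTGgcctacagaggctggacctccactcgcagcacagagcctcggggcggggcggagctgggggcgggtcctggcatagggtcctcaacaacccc
Mcoln1, chr8:3500269-3500568, plus strand: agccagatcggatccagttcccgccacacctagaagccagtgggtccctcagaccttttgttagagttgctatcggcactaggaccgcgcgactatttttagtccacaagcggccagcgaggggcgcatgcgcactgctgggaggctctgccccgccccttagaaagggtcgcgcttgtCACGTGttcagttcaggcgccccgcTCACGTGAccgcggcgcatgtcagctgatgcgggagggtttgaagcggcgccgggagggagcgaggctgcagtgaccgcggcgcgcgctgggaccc
Lamp1, chr8:13158911-13159210, plus strand: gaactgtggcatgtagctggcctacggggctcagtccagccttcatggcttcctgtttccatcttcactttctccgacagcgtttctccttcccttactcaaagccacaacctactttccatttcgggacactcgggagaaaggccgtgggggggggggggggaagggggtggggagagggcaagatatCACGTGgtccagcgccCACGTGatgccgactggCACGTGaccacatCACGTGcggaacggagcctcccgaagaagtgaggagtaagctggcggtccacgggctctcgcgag
Matches of this kind were thus found in genes that fell and in genes that were not called.

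Cathepsins, the proteases of the lysosome, held 3 of the 7 genes that fell under restriction, from 8 tested (37.5%, against 6.5% of all genes lower). With so few genes in each role, such shares do not rank the roles. Cathepsin K (Ctsk), a collagen- and elastin-cleaving cysteine protease, ranged in log2 intensity from 8.04 to 9.31 in AL (median 8.79), from 6.80 to 7.92 in DR (median 7.19) and from 7.54 to 10.05 in Rapa (median 8.20). All 8 DR arrays lay below the lowest AL array, and the Rapa arrays spread over both ranges. The log2 fold change between DR and AL was -1.53 ± 0.31 (SE), a 2.9-fold lower level with a 95% interval of the log2 value from -2.16 to -0.91 (adjusted p = 0.00123). Among the 31 members, groups without overlap between DR and AL were seen in 2, Ctsk and Atp6v1b2, both lower, against 1.56% of all genes.

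Cathepsin S (Ctss), a protease of antigen-presenting cells that trims the invariant chain, lay between 5.34 and 7.59 in AL (median 6.94), between 4.81 and 6.49 in DR (median 5.70) and between 5.88 and 8.32 in Rapa (median 6.89). It was a dim probe, detected on 5 of 8 DR arrays and on every AL and Rapa array, and 2 DR arrays lay below all AL arrays. Its log2 fold change of -1.12 ± 0.33 (adjusted p = 0.0275) was the least secure of the decreases. The adjusted p rose above 0.05, to 0.0653 at most, when any 1 of 6 arrays was left out (AL replicates 2, 3, 7 and 8, DR replicates 5 and 8).

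Cathepsin A (Ctsa), a serine carboxypeptidase that also protects beta-galactosidase and neuraminidase in a complex, ranged from 10.14 to 11.22 in AL (median 10.88), from 9.40 to 10.26 in DR (median 10.01) and from 10.42 to 11.40 in Rapa (median 10.96). In 5 DR arrays the level lay below all AL arrays, and every DR array was below the AL median. The difference was -0.85 ± 0.18 on the log2 scale (adjusted p = 0.00177). A second, dimmer probe of Ctsa gave -0.47 ± 0.20 (adjusted p = 0.157).

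The other 5 tested cathepsin genes were not called between DR and AL. Their log2 fold changes were -0.33 for Ctsz, the carboxypeptidase cathepsin Z, -0.25 for Ctsb, a broad cysteine protease, -0.18 for the aminopeptidase Ctsh, -0.01 for Ctsf, and 0.18 for Ctsc, which activates serine proteases of immune granules. The only probe of Ctsd, the main aspartyl protease, was detected on 3 of 24 arrays and that of Ctsl on 6, and neither was tested.

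Glycosidases, which remove sugars from glycoproteins and glycolipids, held 2 of the genes that fell, from 7 tested (28.6%, against 6.5% of all genes lower). Beta-galactosidase (Glb1), which cleaves terminal galactose from gangliosides and keratan sulfate, ranged from 7.75 to 8.80 in AL (median 8.29), from 6.50 to 7.89 in DR (median 7.14) and from 7.36 to 9.32 in Rapa (median 7.71). The lowest AL array lay above 7 of 8 DR arrays, and 2 Rapa arrays, replicates 6 and 8, stood above all the others at 9.10 and 9.32. Both are among the 7 arrays with an epididymis and testis median over 7. The log2 fold change between DR and AL was -1.08 ± 0.26 (adjusted p = 0.00656), and it remained called in all 13 alternatives and in each of 24 fits with 1 array left out.

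Beta-glucuronidase (Gusb), which degrades glycosaminoglycans, ranged from 9.90 to 10.85 in AL (median 10.55), from 9.16 to 10.29 in DR (median 9.72) and from 9.90 to 10.98 in Rapa (median 10.30). All DR arrays lay below the AL median, 5 of them below every AL array. The log2 fold change was -0.79 ± 0.19 (adjusted p = 0.00741). All 4 kept probes of Gusb gave negative differences, from -1.06 to -0.69, and 3 of the 4 were called.

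The other 5 tested glycosidase genes were not called. Acid alpha-glucosidase (Gaa), the glycogen-degrading enzyme, differed by -0.49 ± 0.23 (adjusted p = 0.192), the hexosaminidase alpha subunit gene Hexa by -0.41 ± 0.22, and the mannosidase genes Man2b1 and Manba by -0.27 and -0.22. Sialidase (Neu1) gave 0.44 ± 0.30. The probe of alpha-galactosidase A (Gla) was detected on no array.

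Of 5 membrane protein genes, Laptm5 was called (20%, against 6.5% of all genes lower). Laptm5 encodes a transmembrane protein of lysosomes in blood-derived cells. It ranged from 11.93 to 12.87 in AL (median 12.23), from 11.23 to 12.11 in DR (median 11.64) and from 11.80 to 12.85 in Rapa (median 12.39). All AL arrays lay above 7 of 8 DR arrays, while the AL and Rapa ranges overlapped almost fully. The difference between DR and AL was -0.68 ± 0.16 (adjusted p = 0.00588). The main structural glycoproteins of the lysosomal membrane were not called: Lamp1 differed by 0.00 ± 0.14, with a 95% interval from -0.29 to 0.29, and Lamp2 by -0.16 ± 0.19. Scarb2, the receptor that carries glucocerebrosidase to the lysosome, gave -0.35 ± 0.27 and Laptm4a 0.15 ± 0.12.

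The proton pump, or V-ATPase, has a cytosolic V1 sector that hydrolyses ATP and a membrane V0 sector that passes protons. Atp6v1b2, a V1 subunit, ranged from 10.45 to 11.03 in AL (median 10.75), from 9.70 to 10.41 in DR (median 10.15) and from 9.95 to 10.90 in Rapa (median 10.34). No DR array reached the lowest AL array, and the Rapa arrays spread over both ranges, 5 of them below all AL arrays. The log2 fold change between DR and AL was -0.62 ± 0.15 (adjusted p = 0.00582). The catalytic V1 subunit gene Atp6v1a gave -0.69 ± 0.24 without passing (adjusted p = 0.0701), and the V0 subunit gene Atp6v0d1 -0.21 ± 0.13. Atp6v0c has no probe listed under that symbol. The calcium channel gene Mcoln1 was detected on 6 of 8 arrays in each group and gave 0.32 ± 0.27 (adjusted p = 0.522).

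**Figure D2:**
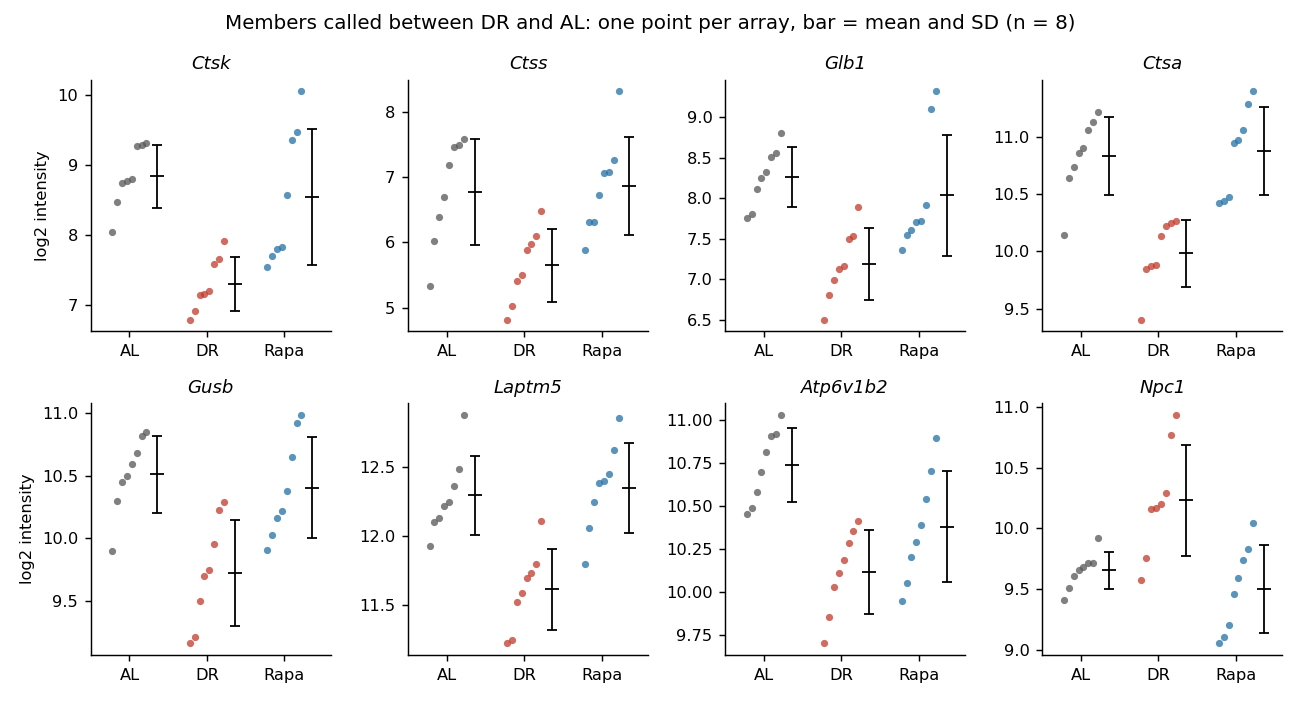
Log2 intensity (y axis, different scale per panel) of the 8 members called between DR and AL, in AL, DR and Rapa, 1 point per array, with mean and SD beside them (n = 8). In Ctsk and Atp6v1b2 all DR points lie below the lowest AL point, and Npc1 is the panel in which the DR mean is highest.

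Among 7 genes of lipid and peptide breakdown, Npc1 was called (14.3%, against 5.2% of all genes higher). Its protein moves cholesterol out through the lysosomal membrane, receiving it from the luminal carrier NPC2. Npc1 ranged from 9.41 to 9.92 in AL (median 9.67), from 9.58 to 10.93 in DR (median 10.19) and from 9.05 to 10.04 in Rapa (median 9.53). In DR, 6 of 8 arrays were above all AL arrays, and the DR arrays were more spread, with an SD of 0.45 against 0.15. The log2 fold change was 0.58 ± 0.18 (adjusted p = 0.0346), and the call was lost, at an adjusted p of 0.0832 at most, in 9 of the 24 fits with 1 array left out (AL replicates 1, 2, 3, 5, 6 and 7, DR replicates 3, 7 and 8).

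The probes of Npc1 disagreed. The brightest gave the increase above, another gave 0.41 ± 0.29 (adjusted p = 0.442), and the other gave -0.71 ± 0.19 (adjusted p = 0.014), so that 2 probes annotated to the gene were called in opposite directions. Averaging the 3 kept probes gave a log2 fold change of 0.09 with an adjusted p of 0.813. The direction of Npc1 under restriction is thus not settled by these probes. Which transcripts each probe reads was not examined.

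Of the 13 members with several kept probes, 10 had probes of 1 sign between DR and AL and 3 had mixed signs (Npc1, Lamp2 and Ctsc). A second probe of Psap, whose product is cut into the saposins that help hydrolases reach their lipids, was called at -0.55 ± 0.18 (adjusted p = 0.0473) while the brighter probe gave -0.18 ± 0.14. Over all 55 kept probes of members, 11 were lower and 1 higher, against a background of 10.6% of probes called in either direction. The remaining genes of this role, Lipa, the acid lipase that hydrolyses cholesteryl esters and triglycerides, Tpp1, a tripeptidyl peptidase, Asah1, acid ceramidase, Ppt1, a palmitoyl-protein thioesterase, and Npc2, were not called. Lipa was lowest among them at -0.64 ± 0.27 (adjusted p = 0.147) and Npc2 highest at 0.14 ± 0.33.

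**Figure D3:**
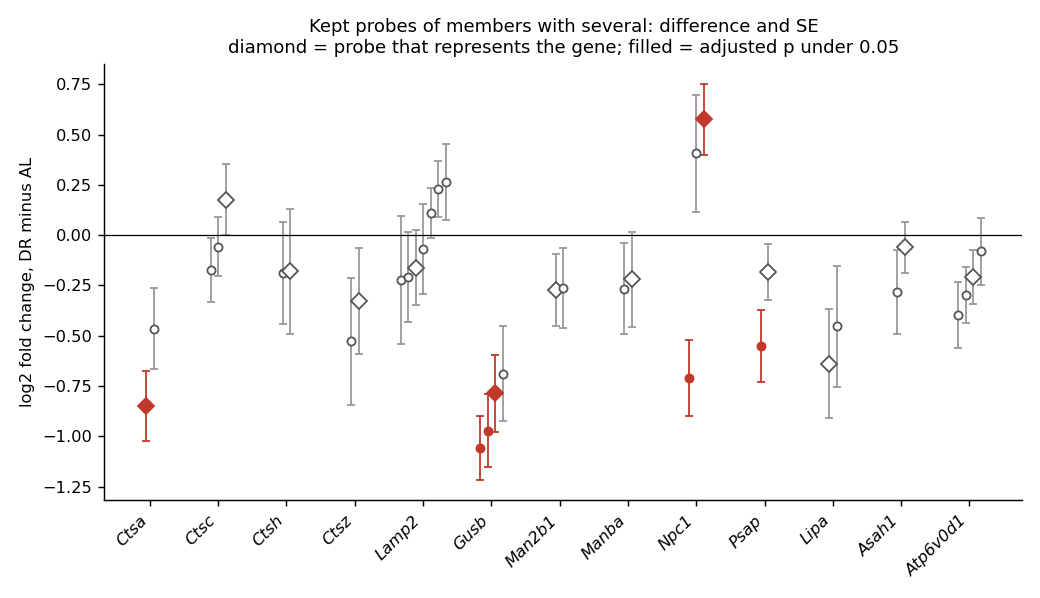
Log2 fold change between DR and AL (y axis, error bars SE, 8 arrays per group) of each kept probe of the 13 members with more than 1. Diamonds mark the brightest probe, which represents the gene, and filled symbols an adjusted p under 0.05. Gusb probes lie together from -1.06 to -0.69, and Npc1 has filled symbols on both sides of 0.

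Rapamycin gave no call in the reported fit. Between Rapa and AL, 0 of 31 members passed in limma, against a background of 0.153% of genes, and 2 had an unadjusted p under 0.05, against 9.61% of genes. Those 2 were Gaa, at a log2 fold change of -0.60 ± 0.23 (adjusted p = 0.384), and Atp6v1b2, at -0.36 ± 0.15 (adjusted p = 0.435). By the probe standing for each gene, the median of the members was -0.11, with a range from -0.60 (Gaa) to 0.38 (Manba). Gaa ranged from 8.59 to 9.26 in AL (median 9.13) and from 7.77 to 9.21 in Rapa (median 8.29), so the highest Rapa arrays reached the AL range. In 2 alternatives, with the replicate number or the class of replicate numbers as a block, Gaa was the 1 member called. All genes called were then 1.23% and 1.57%.

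The 7 genes lowered by restriction differed under rapamycin in their fitted differences and in the width of the intervals. The log2 difference between Rapa and AL was 0.04 for Ctsa, with a 95% interval from -0.32 to 0.40, and 0.06 for Laptm5, from -0.27 to 0.38. It was -0.11 for Gusb, from -0.50 to 0.29. For Ctsk the interval ran from -0.92 to 0.33 and for Ctss from -0.59 to 0.78, both wider than the intervals above. Differences within these limits would not be resolved there. Glb1 gave -0.23, from -0.76 to 0.30. Atp6v1b2 gave -0.36, from -0.66 to -0.06, an interval without 0, though its adjusted p in limma was 0.435. For Glb1, 5 of 8 Rapa arrays lay below every AL array and 2 above every AL array. For Atp6v1b2 these counts were 5 and 0, and for Ctsk 4 and 3.

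The direct comparison of DR with Rapa shares the DR arrays with the comparison against AL, so both sets of values carry the same restricted samples. Between DR and Rapa, 7 of 31 members were called (22.6%), against a background of 11.4% of genes, or 5.54% for lower and 5.88% for higher genes. Lower in DR were 6, namely Ctsk at -1.24 ± 0.31 (adjusted p = 0.00812), Ctss at -1.22 ± 0.33 (adjusted p = 0.0169), Ctsa at -0.89 ± 0.18 (adjusted p = 0.00108), Glb1 at -0.85 ± 0.26 (adjusted p = 0.0338), Laptm5 at -0.73 ± 0.16 (adjusted p = 0.00301) and Gusb at -0.68 ± 0.19 (adjusted p = 0.0209). Npc1 was higher by its brightest probe, at 0.73 ± 0.18 (adjusted p = 0.00752). The Npc1 probe that was lower in DR than in AL gave -0.01 between DR and Rapa (adjusted p = 0.985). That probe gave -0.70 ± 0.19 between Rapa and AL, without passing (adjusted p = 0.162). The mean of the 3 kept probes gave 0.38 between DR and Rapa (adjusted p = 0.182).

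Ctsa was the member whose 8 DR arrays all lay below the lowest Rapa array, against 0.956% of all genes. Atp6v1b2, called against AL, gave -0.26 ± 0.15 against Rapa (adjusted p = 0.309). Without the 7 arrays above a marker median of 7, 3 members were called (Laptm5, Gusb and Npc1, 9.68% against 7.4% of all genes), and without the 10 above 6, or with median scaling, 0 were. The call of Glb1 was lost in 7 of 24 fits with 1 array left out (DR replicates 1, 2, 4, 6 and 8, Rapa replicates 6 and 8) and that of Gusb in 1, without DR replicate 8.

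A wider list of 117 other lysosomal genes, with hydrolases, transporters, pump subunits, sorting factors and cathepsin inhibitors, put these members in context. Of 81 tested, 4 were lower in DR than in AL and 0 higher (4.94%, against the background of 11.7% of all genes), and the median log2 fold change was -0.10. The 4 were Slc15a3, a transporter of histidine and peptides, at -1.35 ± 0.33 (adjusted p = 0.00869), Slc11a1, the metal transporter NRAMP1 of phagosomes, at -0.84 ± 0.17 (adjusted p = 0.00147), Pla2g15, a phospholipase A2, at -0.70 ± 0.15 (adjusted p = 0.00299), and Lgmn, the asparaginyl protease that processes cathepsins, at -0.62 ± 0.14 (adjusted p = 0.00422). None of 13 tested further subunits and factors of the V-ATPase and none of 17 sorting and biogenesis genes was called, while 2 and 6 of them respectively had an unadjusted p under 0.05, as did 25.2% of all genes. Rapamycin gave 0 calls among the 81, with 15 at an unadjusted p under 0.05, against 9.61% of all genes. Between DR and Rapa 6 were called (7.41%, against 11.4% of all genes), the same 4 lower and 2 higher. The 2 were the sulfatase gene Arsb at 0.65 ± 0.16 (adjusted p = 0.00666) and Acp6 at 0.83 ± 0.21 (adjusted p = 0.00987). Acp6, although on the list, encodes a lysophosphatidic acid phosphatase of mitochondria.

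Macrophage markers were also mostly lower under restriction. Of 25 tested macrophage genes, none of them a member, 9 were lower and 1 (Cd14) higher in DR than in AL. That made 40% called, against 11.7% of all genes. The fitted difference was negative for 22 of the 25, with a median log2 fold change of -0.56. The array medians of these markers ranged from 7.48 to 8.79 in AL, from 6.99 to 8.10 in DR and from 7.40 to 8.74 in Rapa. On DR replicates 5, 1 and 8 the median was 6.99, 7.19 and 7.48, beside epididymis and testis medians of 10.08, 9.60 and 8.83. On DR replicates 3 and 7 it was 8.01 and 8.10, beside 9.45 and 7.49. On DR replicates 2, 4 and 6 it was 8.10, 7.56 and 7.79, beside 5.57, 6.12 and 5.36. The macrophage counts include all these arrays, and the share of epididymis and testis transcripts in the fall was not tested. Examples of the lower genes are Gpnmb at -2.38 ± 0.49 (adjusted p = 0.00162), Trem2, a lipid receptor of macrophages, at -1.52 ± 0.30 (adjusted p = 0.00104), and Cd84 at -1.46 ± 0.27 (adjusted p = 0.000739). Each of the 29 markers with a probe was detected on some array, and 20 of them on every array. Between Rapa and AL, 0 of the 25 were called and the median was 0.04. Of the other marker lists between DR and AL, 4 of 12 fibroblast and progenitor genes and 2 of 10 endothelial genes were lower, 2 of 7 mesothelial and 5 of 12 epididymis and testis genes were higher, 1 of 14 adipocyte genes was lower, and 0 of 4 lymphocyte and 0 of 3 hepatocyte genes were called. Over all genes 6.5% were lower and 5.2% higher.

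Members differed in how closely they followed these markers among arrays of 1 group. With group means removed, the slope on the macrophage median was called for 11 of 31 members, all positive, in a limma fit over all kept probes (35.5%, against 9.06% of genes in either direction, 4.8% positive and 4.26% negative). Lipa followed most closely, with Pearson's r = 0.83 and Spearman's rho = 0.86 over 24 arrays (permutation p = 1e-05 for each, the smallest that 100000 permutations within groups can give, adjusted p of the slope = 0.00135). Ctss had r = 0.79 and rho = 0.78 (permutation p = 1e-05 for each, adjusted p = 0.00265). Laptm5 had r = 0.71 and rho = 0.68 (permutation p = 0.00033 and 0.00069, adjusted p = 0.0224). Ctsz, Hexa, Lamp2, Ctsb, Mcoln1, Ctsa, Npc1 and Ctsk make up the rest of the 11.

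Glb1 and Gusb did not follow the markers to a degree that passed. Glb1 had r = 0.02 and rho = 0.25 (permutation p = 0.942 and 0.27) and Gusb r = 0.03 and rho = 0.04 (permutation p = 0.895 and 0.877). For Glb1 the pooled value covers unlike groups, since r was 0.70 within AL, 0.06 within DR and -0.30 within Rapa. Leaving out the 2 arrays farthest from the median of the marker measure, AL replicate 1 and Rapa replicate 8, gave r = 0.81 for Lipa, 0.71 for Ctss, 0.68 for Laptm5, 0.28 for Glb1 and -0.11 for Gusb. With the class of replicate numbers removed as well, r was 0.70, 0.68, 0.78, -0.28 and 0.47 in the same order. Ctsk had r = 0.56, and 0.21 with the class removed. The relation was computed for all 31 tested members. No value of it is given without the arrays high in epididymis and testis markers as a set. Among those arrays, Rapa replicate 8 had a macrophage median of 7.40 and Rapa replicate 6 of 8.74. Their share in the slopes was not tested.

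With the macrophage median as a covariate, 17 of 31 members had negative differences between DR and AL and 5 were called (16.1%, against 7.82% of all genes): Ctsa, Ctsk, Glb1, Gusb and Npc1. Laptm5 (-0.41, adjusted p = 0.0967), Ctss (-0.41, adjusted p = 0.398) and Atp6v1b2 (-0.50, adjusted p = 0.0569) were not. The log2 fold change of Glb1 between DR and AL was -1.06 with the covariate and -1.08 without. Between DR and Rapa, 4 members were called with the covariate (12.9%, against 11.4% of all genes). Of the 7 called there without it, Laptm5, Gusb, Ctsk, Glb1 and Ctss were lost. Manba and Mcoln1 were gained. The covariate is itself lower under restriction, and its part in the differences was not tested otherwise.

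**Figure D4:**
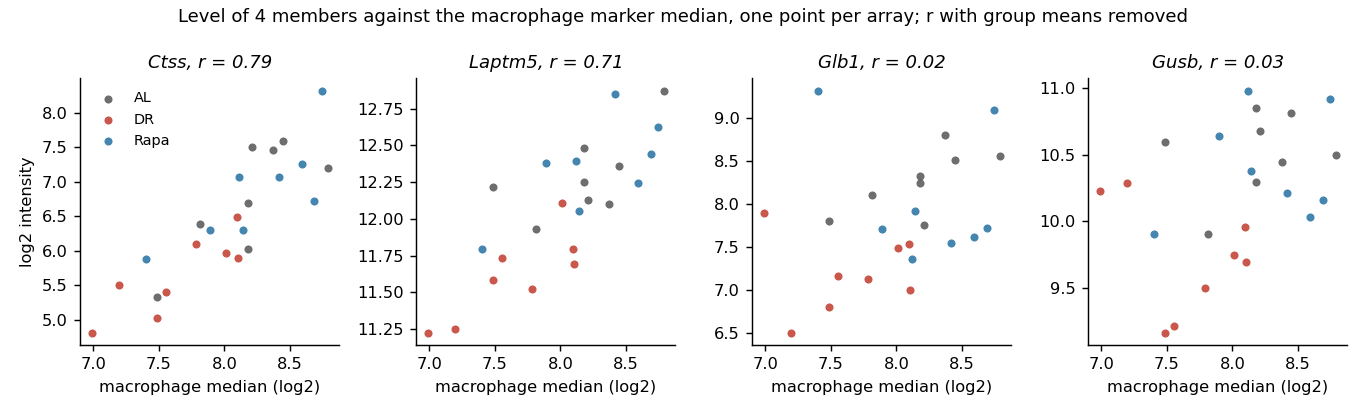
Log2 intensity of Ctss, Laptm5, Glb1 and Gusb (y axes) against the median log2 intensity of the macrophage markers on the same array (x axes), 1 point per array, coloured by group. The r in each title has group means removed: Ctss and Laptm5 rise along the x axis (0.79 and 0.71), and Glb1 and Gusb have r of 0.02 and 0.03.

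The arrays with epididymis and testis transcripts fall mostly in DR, so their share in the differences was examined gene by gene. Without the 7 arrays above a marker median of 7, the log2 fold change between DR and AL was -1.17 for Glb1 (adjusted p = 0.00236) and -1.04 for Gusb (adjusted p = 0.00976). It was -1.26 for Ctsk (adjusted p = 0.0661), -0.98 for Ctss (adjusted p = 0.193) and -0.59 for Ctsa (adjusted p = 0.174). Laptm5 gave -0.64 (adjusted p = 0.0752), Atp6v1b2 -0.44 (adjusted p = 0.224) and Npc1 0.52 (adjusted p = 0.121). All 8 kept their sign, and this setting holds 3 DR arrays.

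Within the 4 classes of replicate numbers, each with 2 arrays per group, the median of the members between DR and AL ran from -0.39 to -0.17 and was negative in all 4. The 7 genes lowered by restriction were negative in each class, from -1.92 to -1.24 for Ctsk and from -1.40 to -0.83 for Glb1. Npc1 was positive in each, from 0.21 to 0.96.

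**Figure D5:**
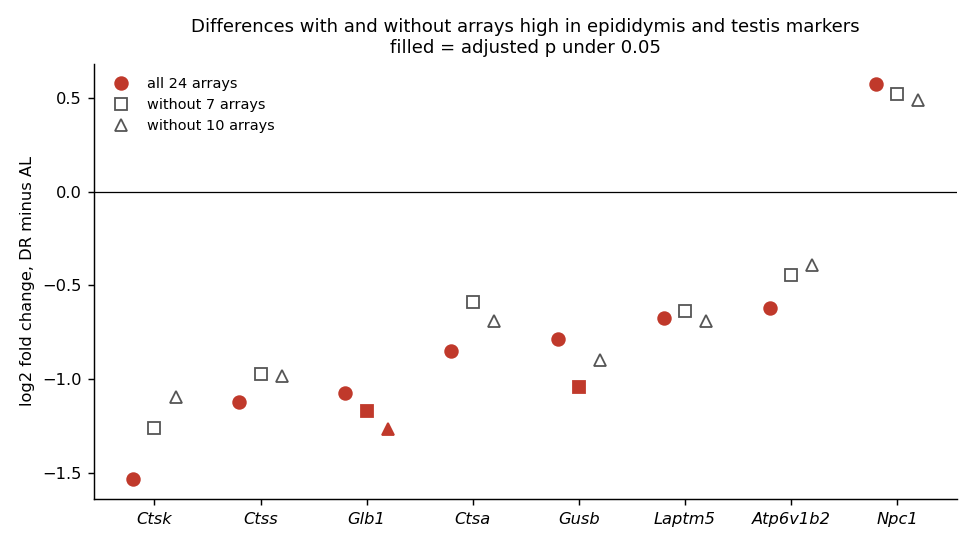
Log2 fold change between DR and AL (y axis) of the 8 called members with all 24 arrays (circles), without 7 arrays (squares) and without 10 arrays (triangles) high in epididymis and testis markers. Filled symbols passed an adjusted p of 0.05: Glb1 is filled in all 3 settings and Gusb in the first 2, and no symbol changes side of 0.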

How the data were processed

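Messenger RNA was measured on 24 arrays, 8 per group, and each array's group was read from its title. The deposited intensity values were background-subtracted before deposit, since 26.7% to 34.3% of an array's values lie below 0, and are accompanied by the deposited detection p-values, per the file headers. The scanner software is not given in the sources used here. A second deposited table holds the authors' processed score, scaled within each array, whose order of probes matches the intensities (Spearman correlation of at least 0.999986). Its column medians lie between -0.42 and -0.32, and its log base is unknown.

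Intensities were corrected, quantile-normalized and log2-transformed with neqc of limma 3.58.1 (R 4.3.3) at an offset of 16. The log2 scale was applied here, not by the authors. Levels are comparable between arrays but not between probes. A probe was kept if detected (p under 0.05) on 8 or more arrays, which held for 17165 of 45281. The platform annotation gives 1 symbol for 34885 probes, several for 18 and lists no entry for 10378, and updating changed 0 symbols. The brightest kept probe, by its mean over all arrays, stood for a gene. One limma fit covered all 24 arrays (21 residual degrees of freedom), two-sided, with Benjamini-Hochberg adjustment over all kept probes. Differences are log2 fold changes with the SE of the fit. The number of arrays limits the precision.

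The labels do not state that each sample is its own animal, and p-values therefore reflect sample spread, which may be technical. The members, the other gene lists and the marker lists were chosen with earlier results of these data known. All 36 members are accounted for by role, with values per group for those called. Alternatives varied the normalization, offset, detection filter, probe rule, arrays, blocks and covariates. Leaving out arrays above a marker median of 7 was chosen after seeing the data. The fit was tested on simulated data. Deviations of same-numbered arrays correlated above 0.1 in 17 of 24 pairs (median 0.21), against 48 of 168 pairs of different number (median -0.03). Pairing required every pair to exceed 0.1, so the numbers were used as a block in an alternative only. Their classes (1 and 5, 2 and 6, 3 and 7, 4 and 8) separate the arrays in part and were used as a block.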

Additional observations from a re-analysis of the deposited data

Results flagged for a closer look

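In 3 of 93 groups examined (31 members in 3 groups of 8 arrays), 1 array stood apart from the other 7 by Dixon's criterion, which chance meets in about 1 in 20 groups. All 3 were DR replicate 5, the array with the highest epididymis and testis marker median among the DR arrays, at 10.08. Scarb2 lay at 5.38 on that array, with the nearest other DR array at 6.26. Man2b1 lay at 11.89, above the next at 11.21. Manba lay at 9.95, above the next at 8.85. With the epididymis and testis median as a covariate, Man2b1 and Manba were called in addition, both lower in DR than in AL, while Laptm5, Npc1 and Ctss lost their calls, for a count of 7.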

How the results depend on the processing

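No called member reversed its sign under any alternative run, but members that were not called did. Between DR and AL, 9 of 31 members changed sign with the macrophage covariate and without the 10 arrays above a marker median of 6, 6 with the epididymis and testis covariate, 5 without the 7 arrays above 7 and 4 with median scaling. Between DR and Rapa, 11 changed sign without the 10 arrays. The members called between DR and AL numbered 8 in the reported fit (1 higher, 7 lower) and between 6 and 9 with 1 array left out. They numbered 3 with median scaling (0 higher, 3 lower) beside 5.86% of all genes, 5 with the authors' processed score (0 higher, 5 lower) beside 11.6%, 5 with the macrophage median as a covariate beside 7.82%, 2 without the 7 arrays beside 4.68%, and 1 without the 10 arrays beside 2.53%. Between DR and Rapa the count was 7 and ranged from 5 to 9 with 1 array left out. It was 0 with median scaling and without the 10 arrays (beside 2.87% and 4.67% of all genes), 3 without the 7 arrays (7.4%), and 4 with the authors' score or with the macrophage covariate (11% and 11.4%). Between Rapa and AL it was 0, including every fit with 1 array left out, and 1 with either replicate block, Gaa. Median scaling shifted the median of all genes by -0.27 between DR and AL, -0.20 between Rapa and AL and -0.08 between DR and Rapa. Same-numbered arrays deviated together more often than others, although the lowest correlation of such a pair was -0.14. Of 24 arrays, 9 correlated best with an array of their own number and 18 with an array of their own number class. With the replicate number, or the number class, as a block, the members called between DR and AL numbered 11, gaining Lipa, Atp6v1a and Gaa, beside 19.2% and 19.9% of all genes. Between DR and Rapa they numbered 8, gaining Lipa, beside 17.9% and 19.2%. For the other lysosomal genes, the count between DR and AL was 4, and 4 to 6 with 1 array left out. It was 7 with the authors' score, 8 with the mean of probes, 17 with the replicate block, 16 with the class block and 1 without the 10 arrays. Their count between Rapa and AL was 0, and 1 with either block. Between DR and Rapa it was 6, and 6 to 9 with 1 array left out. It was 1 with median scaling, 10 with the mean of probes and with the epididymis and testis covariate, 14 with the replicate block and 16 with the class block. The cause of these shifts was not tested, and settings without arrays also have fewer samples. Dim probes such as Ctss, detected on 5 of 8 DR arrays, limit how exactly a low level is known.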
